A study of Mus musculus with 12 samples.

Results

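Transcript levels in hearts of ErbB2 KI mice were set against those in WT hearts on 3 arrays per genotype, 6 of the 12 arrays of the series. Per the methods of the study, all mice were male, 15 weeks of age and on an FVB background. ErbB2 KI mice carry an Erbb2 cDNA knocked into the gene itself, a hypomorphic allele that is not limited to heart cells. WT mice carry neither engineered allele. The other 6 arrays came from KI:KO hearts, which combine that knock-in with loss of ERRα (gene Esrra), and from ERRα KO hearts. Those 2 groups share the ERRα deletion and differ by the knock-in, so they give the same contrast in other animals. RNA came from powdered frozen heart tissue, so fewer cells of a type and less RNA per cell cannot be told apart. Each gene was read through its brightest probe set over the 12 arrays, and 22180 genes could be measured so, all those whose probe sets are annotated to exactly 1 gene. Values are on the log2 scale of the deposited normalized signal, in which 1 unit is a doubling, and levels are compared within a gene only.

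ErbB2 is a receptor tyrosine kinase of the EGF receptor family. It binds no ligand of its own. In heart muscle it is known to pair with ErbB4 after neuregulin binds, and to pass the signal to the PI3K-AKT and RAS-MAPK pathways, which cardiomyocytes use for survival and growth. ERRα is an orphan nuclear receptor known for driving mitochondrial and fatty acid oxidation genes in this tissue. The comparison asks what a lower dose of the receptor does to the heart transcriptome when ERRα is present.

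The 12 arrays had medians between 4.58 and 4.65 over all probe sets. They correlated with each other at r between 0.982 and 0.994 over the 22180 genes. The heart label was checked on 12 cardiomyocyte markers such as Myh6, Tnnt2 and Ryr2. They averaged 11.41, 11.42 and 11.41 in the 3 ErbB2 KI hearts, against 11.45, 11.44 and 11.45 in the 3 WT hearts. Single arrays stood apart for genes of other tissues and for sex-linked genes. The T cell gene Cd3e was at 7.21 in the second ErbB2 KI heart, with 5.10 and 5.06 in the others of its group, against 5.15, 5.03 and 5.12 in WT hearts. In the same heart the Y-linked gene Kdm5d was at 5.18, against 6.43 and 6.37 in the other ErbB2 KI hearts and 6.27, 6.59 and 6.29 in WT hearts. The summed linear signal of 5 sex-linked markers was 278 in that heart, against 625 and 548 in the others of its group. It was 560, 545 and 550 in WT hearts. The first ErbB2 KI heart had Scgb1a1, the club cell secretoglobin of the airway, at 8.95, against 2.64 and 2.72 in the others of its group and 2.82, 2.63 and 3.08 in WT hearts. Their part in the results was not tested beyond leaving each array out in turn. A gene is called here at a limma p under 0.05 after adjustment over all genes. It passed the looser 1.2-fold threshold at an unadjusted p under 0.05 with a change of at least 1.2-fold, the rule in the methods of the study.

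Erbb2 itself was lower in ErbB2 KI hearts. Erbb2 (chromosome 11, 98412484 to 98437716, GRCm38.p6) measured 5.74, 5.94 and 5.61 in ErbB2 KI hearts, against 6.56, 6.39 and 6.47 in WT hearts. The groups did not overlap. The difference was -0.71 ± 0.13 (SE) on the log2 scale, or 61.3% of WT. It ranked 13 by p among all genes, and the limma p adjusted over all genes was 0.199, so it passed the 1.2-fold threshold without being called. KI:KO hearts had 5.97, 5.81 and 5.64, against 6.60, 6.43 and 6.80 in ERRα KO hearts. That difference was -0.80 with an adjusted p of 0.0217, and the interaction of the 2 genotypes was -0.09 ± 0.18 (SE, adjusted p = 0.951). Which exons the probe set reads is not given in the sources used here. Esrra, the gene disrupted in the other pair of groups, was at 7.54, 7.46 and 7.67 in ErbB2 KI hearts and at 7.74, 7.40 and 7.56 in WT hearts, a difference of -0.01.

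The other members of the receptor family passed neither threshold in ErbB2 KI against WT hearts. Erbb4, the neuregulin receptor, measured 7.69, 7.51 and 7.57 in ErbB2 KI hearts, against 7.50, 7.63 and 7.40 in WT hearts. Erbb3, the kinase-impaired partner, measured 6.68, 6.54 and 6.83 in ErbB2 KI hearts, against 6.95, 6.82 and 6.87 in WT hearts. Egfr measured 7.18, 7.21 and 6.93 in ErbB2 KI hearts, against 7.06, 7.10 and 6.97 in WT hearts. For these 3 receptors the groups overlapped, and the differences were 0.08, -0.20 and 0.06 with standard errors of 0.11, 0.14 and 0.12. For Erbb4 the second contrast, KI:KO minus ERRα KO, was -0.38. There it passed the 1.2-fold threshold without being called (limma adjusted p = 0.195).

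None of the 10 ErbB ligands measured passed, beside 4.3% of all genes. Their median difference was 0.06, against -0.004 over all genes. In KI:KO against ERRα KO hearts 2 of the 10 were higher, beside 4.46% of all genes, and none lower. Nrg1, the main cardiac ligand, which endothelial cells release, measured 5.23, 5.52 and 4.93 in ErbB2 KI hearts, against 5.60, 5.54 and 5.31 in WT hearts, and its difference of -0.25 had a standard error of 0.31. Egf had the largest difference to standard error of the ligands, -0.20 ± 0.12 (SE). Among 32 signal transducers and brakes 1 passed, Spry2, a feedback inhibitor of receptor tyrosine kinases, with a difference of -0.29. Spry2 no longer passed in 9 of 16 alternative settings. Its relative Spry1 had -0.24, and Pik3r1, the regulatory subunit of PI3K, had 0.15.

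**Figure D1:**
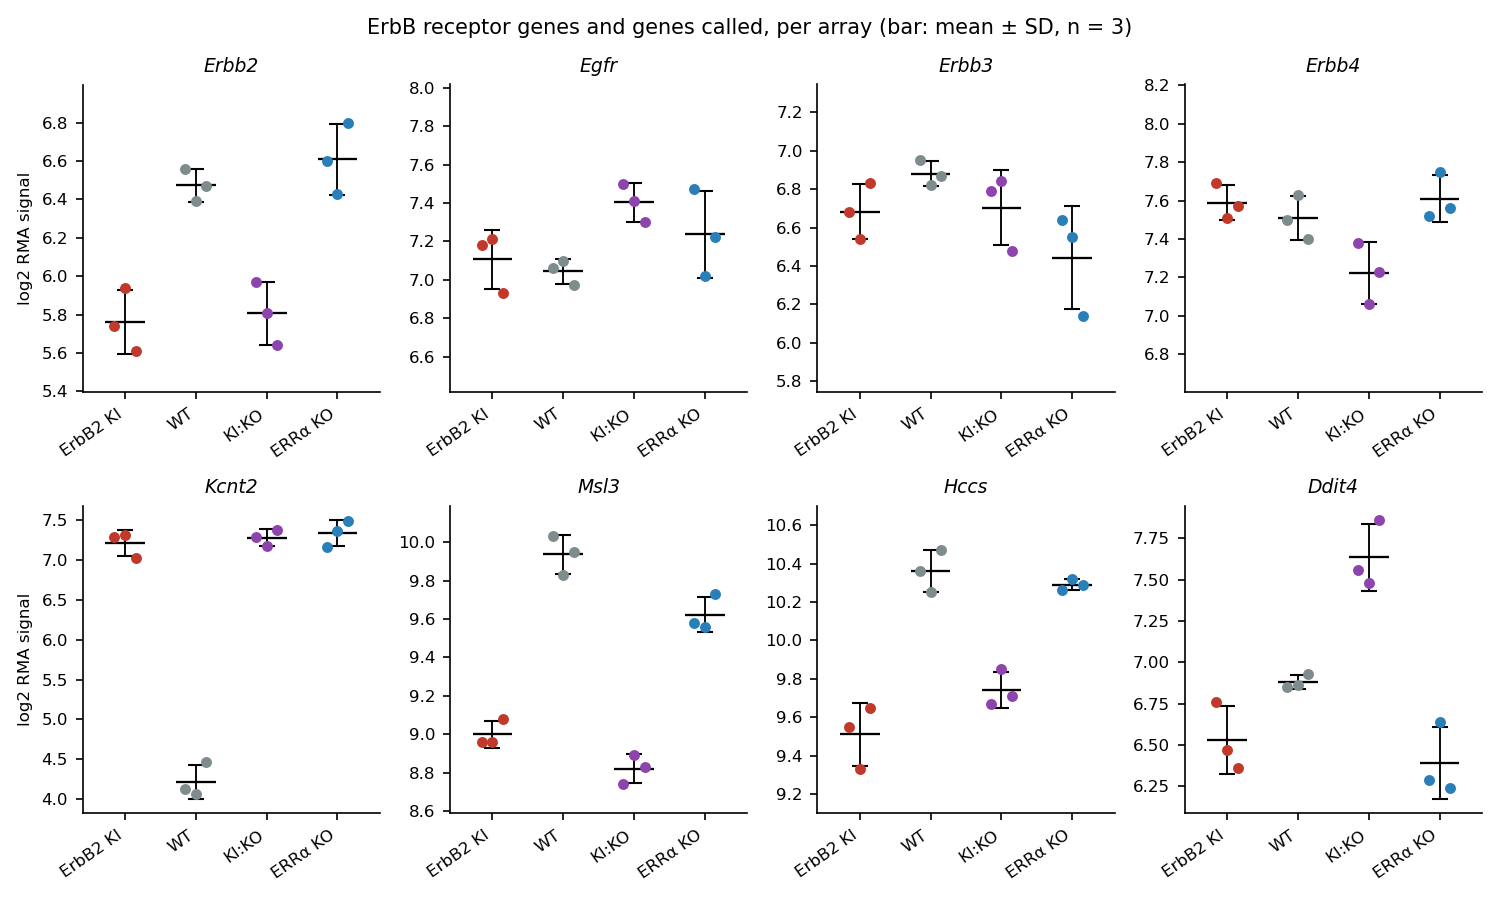
Log2 signal per array for the 4 ErbB family receptor genes (top) and for Kcnt2, Msl3, Hccs and Ddit4 (bottom) in ErbB2 KI, WT, KI:KO and ERRα KO hearts. Points are arrays, and bars give mean ± SD (n = 3). Erbb2 averaged 5.76 in ErbB2 KI against 6.47 in WT hearts and 5.81 in KI:KO against 6.61 in ERRα KO hearts, while Kcnt2 was low in WT hearts alone, at a mean of 4.22.

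Over the whole transcriptome 3 genes, 0.0135% of 22180, were called at an adjusted p under 0.05. They were Kcnt2, which was higher in ErbB2 KI hearts, and Msl3 and Hccs, which were lower. At the 1.2-fold threshold 558 genes (2.52%) were higher and 395 (1.78%) lower in ErbB2 KI hearts, 953 in all (4.3%). An unadjusted p under 0.05 alone was reached by 1182 genes, or 5.33%, where 5% would be reached with no difference in any gene. Counts of list members are therefore read against 2.52% higher and 1.78% lower. The 3 arrays of one group lay all above or all below the 3 of the other for 2601 genes (11.7%), and for 732 of the 953. Most differences were small, with a median size of 0.39, and 24 genes reached 1 on the log2 scale, 18 higher and 6 lower. The same contrast without ERRα, KI:KO against ERRα KO, called 73 genes (0.329%), and 1875 (8.45%) passed the looser threshold, 989 higher (4.46%) and 886 lower (3.99%).

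Kcnt2, on chromosome 1 (140245657 to 140614045), encodes a potassium channel that opens with intracellular sodium. It measured 7.29, 7.32 and 7.02 in ErbB2 KI hearts, against 4.12, 4.06 and 4.46 in WT hearts. The difference of 2.99 ± 0.13 (SE), or 7.96-fold, had an adjusted p of 1.1e-06 and was the largest in either direction among genes past the threshold. The level did not go with the knock-in alone. KI:KO hearts measured 7.29, 7.17 and 7.38, against 7.16, 7.36 and 7.49 in ERRα KO hearts, so that WT was the one group that was low. The interaction was -3.05 ± 0.19 (SE, adjusted p = 4.6e-05), 1 of 2 genes (0.00902% of those tested) called for it. Of the 60 other genes that start within 5 Mb of Kcnt2, 5 passed the 1.2-fold threshold in ErbB2 KI hearts, or 8.33%, against 4.3% of all genes. They were Shisa4 and Mir181b-1, with 0.49 and 0.64, and Ddx59, Gm4788 and Rgs2, with -0.52, -0.63 and -0.32. Of all 61 genes in the window 1 passed in KI:KO against ERRα KO hearts, where 8.45% of all genes passed. Other channel genes past the threshold were Cacna1g, a T-type calcium channel of pacemaker cells, Kcnj5, a subunit of the acetylcholine-activated potassium channel, and Gja5, the connexin of atria and conduction fibres, with -0.78, -0.29 and 0.28, of which Gja5 no longer passed in 11 of 16 settings.

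The start regions of Erbb2 and Kcnt2 are printed here because one carries the engineered allele and the other the largest difference. Each is the 250 bases before 1 RefSeq start site, the first that the promoter table lists for the gene (GRCm38.p6), on the strand of the gene, with CCAAT boxes in capitals (CCAAT, or ATTGG on the other strand). Erbb2 is on the plus strand at chr11:98412234-98412483 and Kcnt2 on the plus strand at chr1:140245468-140245717.
Erbb2: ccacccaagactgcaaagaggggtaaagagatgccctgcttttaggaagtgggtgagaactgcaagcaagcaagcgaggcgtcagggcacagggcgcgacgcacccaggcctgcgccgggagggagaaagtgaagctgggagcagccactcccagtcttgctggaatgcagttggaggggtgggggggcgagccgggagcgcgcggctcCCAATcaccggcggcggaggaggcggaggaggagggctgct
Kcnt2: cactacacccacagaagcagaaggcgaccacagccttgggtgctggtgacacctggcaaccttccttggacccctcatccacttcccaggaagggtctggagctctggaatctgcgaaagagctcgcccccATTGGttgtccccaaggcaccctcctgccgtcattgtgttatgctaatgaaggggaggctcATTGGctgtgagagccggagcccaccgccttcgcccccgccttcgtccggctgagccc
Erbb2 had 1 such match and Kcnt2 had 2. Of 32851 promoter windows of this length, 33.8% had at least 1. The ERR response element TNAAGGTCA, searched on both strands, was found in neither, nor in the windows of Msl3 and Hccs, and 1.14% of all windows held it. A match describes letters only. The start site used for Kcnt2 lies within the gene span given above, so the end of its window overlaps that span.

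Msl3 and Hccs lie close together near the distal end of chromosome X. Msl3 (168651267 to 168674354) encodes a chromodomain subunit of the MSL histone acetyltransferase complex. It measured 8.96, 8.96 and 9.08 in ErbB2 KI hearts, against 10.03, 9.83 and 9.95 in WT hearts. The difference was -0.94 ± 0.09 (SE, adjusted p = 0.0028), or 52.2% of WT. Hccs (169311530 to 169320374) encodes the enzyme that attaches haem to cytochrome c. It measured 9.55, 9.33 and 9.65 in ErbB2 KI hearts, against 10.36, 10.25 and 10.47 in WT hearts. The difference was -0.85 ± 0.10 (SE, adjusted p = 0.0213), or 55.4% of WT. Hccs lost its call, with adjusted p between 0.0511 and 0.193, when any 1 of the 6 arrays other than the third ErbB2 KI heart was left out. Both were also lower with the knock-in where ERRα was absent. Msl3 measured 8.74, 8.89 and 8.83 in KI:KO hearts, against 9.58, 9.56 and 9.73 in ERRα KO hearts. Hccs measured 9.67, 9.85 and 9.71 in KI:KO hearts, against 10.26, 10.32 and 10.29 in ERRα KO hearts. Those differences were -0.80 (adjusted p = 0.00335) and -0.54 (adjusted p = 0.0551).

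The lower signal extended over their neighbourhood but not over every gene in it. Of the 10 genes from Tlr8 to Mid1, a stretch of 2.44 Mb that holds both, 7 passed the 1.2-fold threshold in ErbB2 KI hearts and all 7 were lower. The ends of the stretch were set by lower genes after their values were seen, so this count is a description. Tlr7, a receptor for single-stranded RNA, measured 5.17, 5.25 and 5.39 in ErbB2 KI hearts, against 6.12, 6.21 and 6.12 in WT hearts. Arhgap6 measured 6.05, 6.24 and 6.39 in ErbB2 KI hearts, against 6.83, 6.96 and 7.03 in WT hearts. Prps2, a phosphoribosyl pyrophosphate synthetase, measured 7.44, 7.40 and 7.62 in ErbB2 KI hearts, against 8.10, 8.17 and 8.19 in WT hearts. In each of these 3 genes every ErbB2 KI array was below every WT array. The differences were -0.88, -0.71 and -0.66, with adjusted p of 0.0895, 0.0822 and 0.171. Mid1, a microtubule-binding ubiquitin ligase, had -0.64 and Tlr8 had -0.53. Between them Gm6744, Frmpd4 and Amelx had -0.08, 0.14 and 0.17. In KI:KO against ERRα KO hearts 5 of the 10 passed, all lower, with Arhgap6 at -0.90, Prps2 at -0.64 and Mid1 at -0.55, and with Tlr7 at -0.12 and Tlr8 at -0.21. Those last 2 did not pass there.

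Within 5 Mb of Msl3, 8 of 37 other genes passed the 1.2-fold threshold, or 21.6%, against 4.3% of all genes. Outside the stretch Ofd1, a centrosome gene, had -0.36, and Erdr1, in the pseudoautosomal region, had 0.47. Erdr1 measured 10.47, 10.15 and 10.18 in ErbB2 KI hearts, against 9.70, 9.90 and 9.80 in WT hearts. Over the whole chromosome X 61 of 905 genes passed, or 6.74%, while chromosomes 1 to 19 lay between 2.81% on chromosome 4 and 5.47% on chromosome 17. The share on chromosome X was not counted again without the second ErbB2 KI heart, whose sex-linked signal was low. The other subunits of the MSL and NSL chromatin complexes did not go along with Msl3. It was the 1 of 13 that passed, and the median of the list was -0.02.

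The start regions of Msl3 and Hccs are shown because these nearby genes were lower together. GC boxes are in capitals (GGGCGG, or CCGCCC on the other strand). Both genes are on the minus strand. The start site used for Msl3 lies within the gene span given above, and so does its whole window. The windows are chrX:168673873-168674122 for Msl3 and chrX:169320373-169320622 for Hccs.
Msl3: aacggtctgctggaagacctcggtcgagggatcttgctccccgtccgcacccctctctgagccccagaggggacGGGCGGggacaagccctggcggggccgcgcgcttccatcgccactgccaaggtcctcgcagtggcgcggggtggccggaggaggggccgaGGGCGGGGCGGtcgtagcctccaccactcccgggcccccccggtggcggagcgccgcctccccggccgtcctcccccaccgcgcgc
Hccs: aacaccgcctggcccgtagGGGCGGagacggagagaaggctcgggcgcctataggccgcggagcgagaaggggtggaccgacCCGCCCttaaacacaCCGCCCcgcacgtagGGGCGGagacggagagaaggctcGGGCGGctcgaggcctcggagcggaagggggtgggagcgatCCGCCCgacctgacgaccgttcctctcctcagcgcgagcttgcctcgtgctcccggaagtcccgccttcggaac
Msl3 had 3 matches, 2 of which overlap, and Hccs had 6. Of all promoter windows 32.7% held at least 1. In the same stretch Arhgap6 had 1, and Prps2 and Mid1 had 0.

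Around the engineered gene on chromosome 11, 21 of 313 other genes within 5 Mb passed the 1.2-fold threshold, or 6.71%, against 4.3% of all genes. Their differences ran both ways. Cacna1g measured 5.67, 5.90 and 5.83 in ErbB2 KI hearts, against 6.68, 6.76 and 6.30 in WT hearts, and its difference of -0.78 stood beside -0.79 in KI:KO against ERRα KO hearts. Epn3, an epsin of endocytosis, measured 7.66, 7.66 and 7.70 in ErbB2 KI hearts, against 8.50, 8.40 and 8.48 in WT hearts. Its difference was -0.79 ± 0.11 (SE, adjusted p = 0.0698), with 0.11 in the second contrast. Utp18, a ribosome assembly gene, was higher, with 7.04, 6.84 and 7.15 in ErbB2 KI hearts, against 6.19, 6.36 and 6.39 in WT hearts. Its differences were 0.69 in this contrast and 0.49 in the second. In all, 6 of this window's 314 genes, Erbb2 included, passed in the same direction in both contrasts, beside 106 of all 22180 genes. The others were Rsad1, lower in both, and Npepps and Cisd3, higher in both. Of the genes next to Erbb2, Pgap3 had -0.41, and Tcap, Pnmt, Mien1 and Grb7 had 0.10, -0.01, 0.03 and 0.19, none of which passed except Pgap3.

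**Figure D2:**
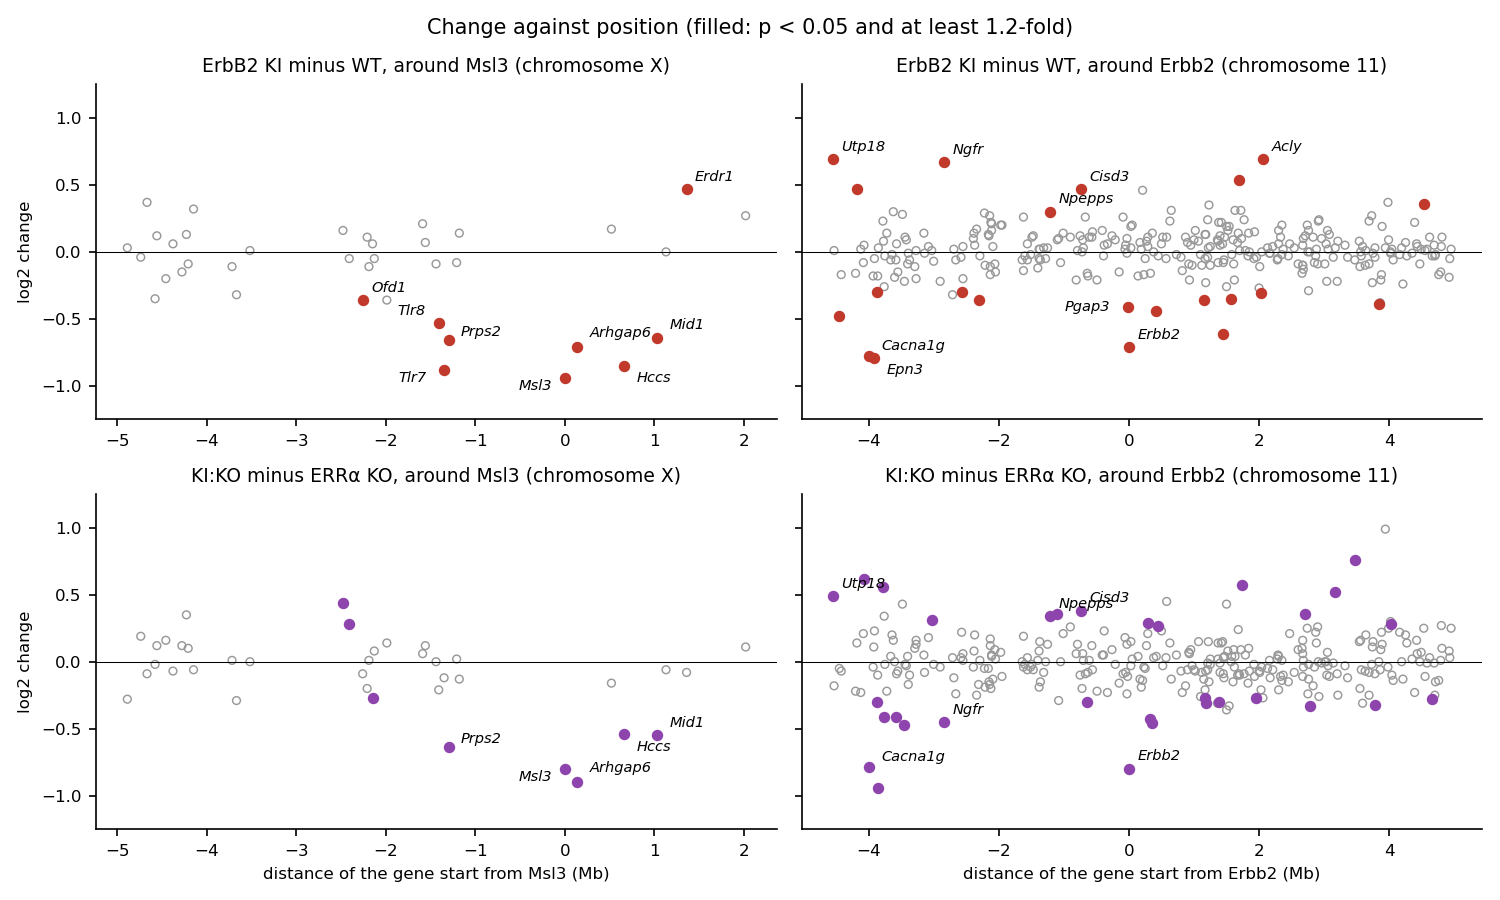
Log2 difference of each gene against the distance of its start from Msl3 on chromosome X (left) and from Erbb2 on chromosome 11 (right), in Mb, for ErbB2 KI minus WT (top) and KI:KO minus ERRα KO (bottom). Filled points passed the 1.2-fold threshold. Around Msl3 a run of genes lay between -0.53 and -0.94 in ErbB2 KI hearts, while around Erbb2 genes past the threshold lay on both sides of 0.

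Comparison with the second contrast shows which genes passed the 1.2-fold threshold in both ERRα genotypes. Both lists rest on an unadjusted p, so the presence of a single gene in both is a description. The 2 contrasts share no array. Of the 953 genes past the threshold in ErbB2 KI hearts, 153 also passed in KI:KO against ERRα KO hearts. Of these 106 had the same direction, which is 11.1% of the 953 and 5.65% of the 1875 of the second contrast, and 47 had opposite directions. With each contrast fitted on its own 6 arrays, 108 genes passed in both with the same direction. By direction, 43 genes were higher in both, or 7.71% of the genes higher in ErbB2 KI hearts, against a background of 4.46%. The 63 lower in both made up 15.9% of those lower in ErbB2 KI hearts, against 3.99%. Another 35 were higher in ErbB2 KI and lower in KI:KO hearts, 6.27% of the higher genes against a background of 3.99%. The reverse held for 12, 3.04% of the lower genes against 4.46%. Across all genes the log2 differences of the contrasts correlated at r = 0.09, a description in which genes are not independent.

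C7, a terminal complement component made by fibroblasts and vessel cells, had the smallest p in ErbB2 KI against WT hearts among genes higher in both. In the second contrast others, such as Fkbp5 and Lyve1, had a smaller p. It measured 9.52, 9.73 and 9.75 in ErbB2 KI hearts, against 8.56, 8.83 and 8.66 in WT hearts. The difference of 0.98 ± 0.16 (SE, adjusted p = 0.152) stood beside 0.59 in the second contrast. The glutamine transporter Slc1a5 had 0.81 and 0.45. Gfpt2, of the hexosamine pathway, had 0.54 and 0.49. Fkbp5, a glucocorticoid-induced chaperone partner, had 0.46 and 1.22. These 4 genes had no overlap between ErbB2 KI and WT arrays. Higher levels were not particular to hearts with the knock-in. In ERRα KO minus WT, C7, Slc1a5, Gfpt2 and Fkbp5 had 0.95, 0.8, 1.07 and 0.36 (limma adjusted p = 0.00884, 0.0191, 3.0e-04 and 0.144). Also higher in both were the transcription factor Cebpb with 0.46 and 0.56, the matrix gene Adamtsl2 with 0.40 and 0.69, Thbd, the thrombin receptor of endothelium, with 0.38 and 0.36, Lyve1, a marker of lymphatic vessels and resident macrophages, with 0.35 and 1.02, and Asns, asparagine synthetase, with 0.36 and 0.27. In ERRα KO minus WT, Adamtsl2 and Asns had 0.66 and 0.43 (limma adjusted p = 0.00416 and 0.0326). Cebpb, Thbd and Lyve1 had 0.33, 0.09 and 0.33 there and were not called. Tom1l1 had 0.37 in ErbB2 KI minus WT and 0.42 in the second contrast, but 0.08 in ErbB2 KI hearts when its probe sets were averaged. The mast cell proteases Cma1 and Cpa3 were among the 43, a grouping made after the values were seen. Mcpt4, another protease of these cells, measured 3.44, 3.52 and 3.34 in ErbB2 KI hearts, against 1.99, 2.55 and 1.93 in WT hearts, but it had 0.25 in the second contrast and did not pass there.

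Besides the genes on chromosomes X and 11, those lower in both contrasts included the nuclear receptor Nr4a1, an immediate early gene. It measured 6.98, 7.59 and 6.94 in ErbB2 KI hearts, against 7.83, 8.29 and 8.80 in WT hearts. Its differences were -1.13 and -0.65. Clec7a, the β-glucan receptor of myeloid cells, had -0.71 and -0.60, Rtp4, an interferon-induced chaperone, had -0.67 and -0.56, and Cracr2a, a calcium sensor, had -0.34 and -0.40. Kcnj5 had -0.29 and -0.43, and Cenpf, a kinetochore gene, had -0.29 and -0.36. F830016B08Rik had -1.76 and -2.92. It measured 7.16, 6.89 and 7.33 in ErbB2 KI hearts, against 8.61, 10.40 and 7.64 in WT hearts. The second WT heart was the highest, as for the interferon-stimulated gene Gbp3 below. F830016B08Rik no longer passed in 7 of 16 alternative settings.

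**Figure D3:**
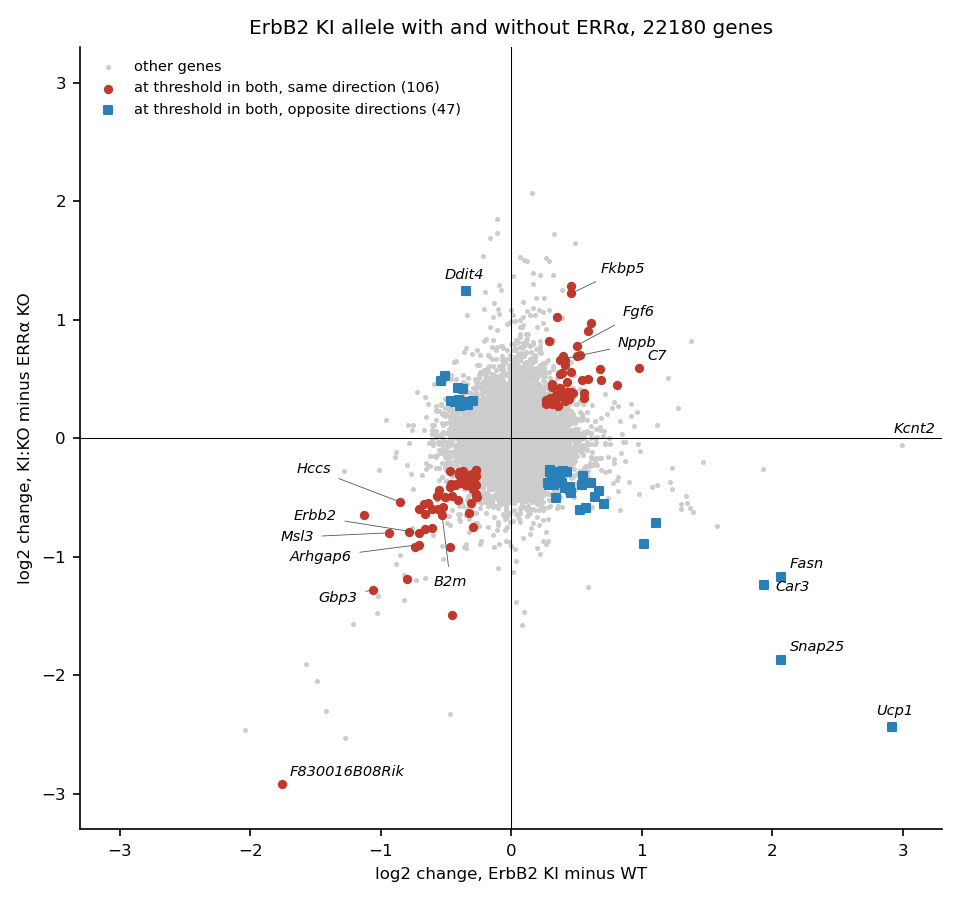
Log2 difference of each of 22180 genes between ErbB2 KI and WT hearts (x axis) against that between KI:KO and ERRα KO hearts (y axis). Circles mark the 106 genes past the 1.2-fold threshold in both with the same direction, and squares the 47 with opposite directions. Ucp1, Snap25, Fasn and Car3 stood at the lower right, Kcnt2 at 2.99 and -0.06.

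Growth factor genes were among those in both contrasts. Of 43 FGF, IGF, VEGF and other growth factor genes measured, 6 were higher (14%, against 2.52% of all genes) and 1 lower (2.33%, against 1.78%) in ErbB2 KI hearts, with a median of 0.05. The study had already named Fgf6, Fgf16, Igf1 and Pgf for ErbB2 KI hearts from these same arrays. The list was written with them in it, so these shares are partly set in advance and are a description. Fgf6, known in skeletal muscle, measured 5.51, 5.49 and 5.33 in ErbB2 KI hearts, against 4.96, 4.71 and 5.15 in WT hearts, with differences of 0.50 here and 0.78 in the second contrast. Pgf, placental growth factor, measured 6.25, 5.80 and 6.15 in ErbB2 KI hearts, against 5.31, 5.62 and 5.60 in WT hearts, with differences of 0.56 and 0.38. Igf1 measured 6.85, 6.97 and 6.84 in ErbB2 KI hearts, against 6.50, 6.43 and 6.43 in WT hearts, with differences of 0.43 and 0.39. All 3 were higher on every ErbB2 KI array than on any WT array, although Igf1 no longer passed without the second ErbB2 KI or the third WT heart. The receptor Fgfr3 had 0.31 and 0.43. Fgf12, an intracellular regulator of sodium channels, and Vegfa had 0.51 and 0.40 in ErbB2 KI hearts but 0.03 and 0.07 in the second contrast. Fgf16, a cardiac FGF encoded on chromosome X, was the 1 lower member. It measured 6.78, 6.70 and 6.90 in ErbB2 KI hearts, against 7.27, 7.33 and 7.17 in WT hearts, and its differences were -0.47 and -0.41. Fgf12 had the smallest adjusted p of the 7, 0.418.

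Genes of fat cells were higher in ErbB2 KI hearts, and the adipocyte markers were the list with the largest median. Of 12 adipocyte markers 8 passed the 1.2-fold threshold, all higher, or 66.7% against 2.52% of all genes, with a median of 0.79. One list member, Fabp4, is also a marker of endothelium. Ucp1, the uncoupling protein of brown fat, measured 9.15, 7.37 and 6.99 in ErbB2 KI hearts, against 5.58, 4.81 and 4.35 in WT hearts. The difference of 2.92 ± 0.57 (SE) had an adjusted p of 0.252. Car3, a carbonic anhydrase abundant in fat, measured 10.79, 10.58 and 8.77 in ErbB2 KI hearts, against 8.29, 8.14 and 7.90 in WT hearts. The lipid droplet genes Cidec and Plin1 had 1.23 and 0.90, the adipokine genes Retn and Adipoq 0.97 and 0.57, and Cyp2e1 1.47. Thrsp, the lipogenic factor Spot 14, had 0.68.

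A group of 6 genes of fatty acid synthesis, which is no list and was put together after the values were seen, was also higher. Fasn, fatty acid synthase, measured 10.21, 9.90 and 8.36 in ErbB2 KI hearts, against 7.48, 7.55 and 7.26 in WT hearts, a difference of 2.07 ± 0.38 (SE, adjusted p = 0.21). Scd1, the stearoyl-CoA desaturase, measured 10.37, 9.95 and 8.74 in ErbB2 KI hearts, against 7.80, 8.67 and 7.85 in WT hearts. Elovl6, which elongates palmitate, had 1.35, Acaca, acetyl-CoA carboxylase, had 1.12, Slc25a1, the citrate carrier, had 0.82, and Acly, ATP citrate lyase, had 0.69. In each of the 6 every ErbB2 KI array was above every WT array, and the third ErbB2 KI heart was the lowest of its group. The summed linear signal of the 12 adipocyte markers was 7778, 6385 and 4440 in ErbB2 KI hearts, against 4282, 3928 and 4283 in WT hearts, with no overlap. Fat left on the heart and lipid synthesis within heart cells cannot be told apart in these samples.

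The leading genes of this group had the other sign in the second contrast. Ucp1 measured 5.70, 4.44 and 5.38 in KI:KO hearts, against 6.69, 7.93 and 8.21 in ERRα KO hearts, a difference of -2.44. Fasn measured 7.61, 7.01 and 7.84 in KI:KO hearts, against 8.37, 8.74 and 8.87 in ERRα KO hearts, a difference of -1.17. Of the 12 markers 3 were lower there, against 3.99% of all genes, and none higher, with a median of -0.27. The higher level was not particular to ErbB2 KI hearts. In ERRα KO minus WT, Ucp1, Car3 and Cyp2e1 had 2.7, 2.1 and 1.83 (limma adjusted p = 0.0284, 0.0419 and 0.0224), and Fasn had 1.23 (0.152). In KI:KO minus WT the same 4 genes had 0.26, 0.86, 1.64 and 0.06. The summed linear signal of the 12 markers was 5109, 5311 and 5677 in ERRα KO hearts. The interactions were -5.36 ± 0.80 for Ucp1 and -3.24 ± 0.54 for Fasn (SE), with adjusted p of 0.11 and 0.159, so that the difference between the contrasts was not called. Without the third ErbB2 KI heart 15 genes were called between ErbB2 KI and WT in place of 3, and the added genes included Fasn, Elovl6, Slc25a1, Acly, Cyp2e1, Acaca, Scd1 and Car3, with adjusted p between 0.00218 and 0.0194.

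**Figure D4:**
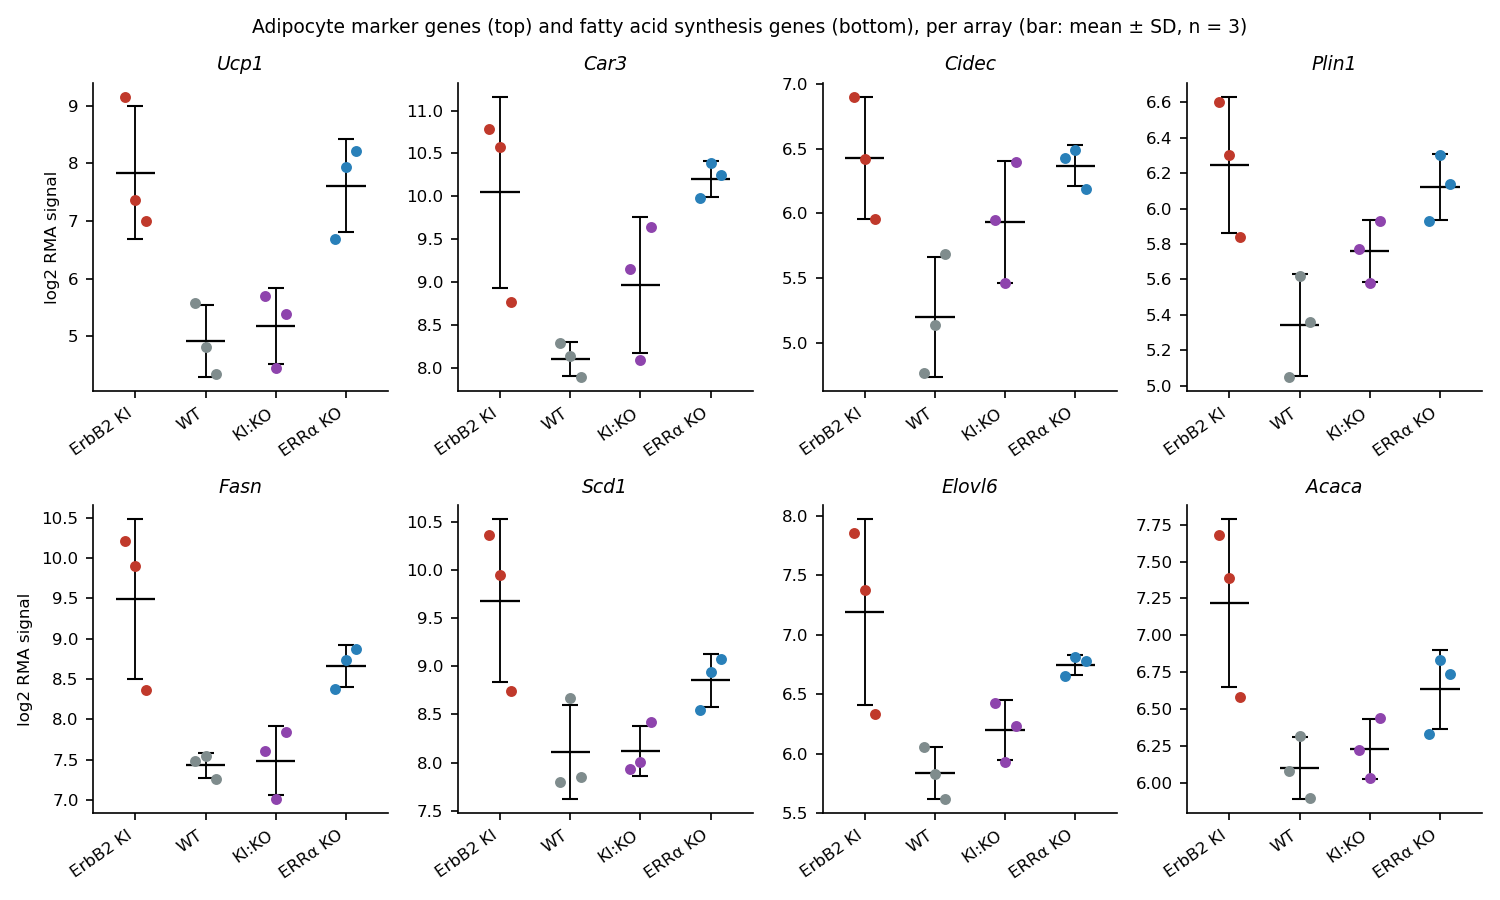
Log2 signal per array of 4 adipocyte marker genes (top) and 4 fatty acid synthesis genes (bottom) in ErbB2 KI, WT, KI:KO and ERRα KO hearts. Points are arrays, and bars give mean ± SD (n = 3). The first 2 ErbB2 KI hearts were high and the third lower, as for Fasn with 10.21, 9.90 and 8.36 against 7.26 to 7.55 in WT hearts.

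Snap25, Syt1 and Nefl, neuronal genes picked after their values were seen, had the same pair of signs. Snap25, a SNARE protein of synaptic vesicle release, measured 6.13, 7.03 and 6.23 in ErbB2 KI hearts, against 4.59, 4.42 and 4.18 in WT hearts. Its difference was 2.07 here, -1.87 in the second contrast and 2.39 in ERRα KO minus WT (limma adjusted p = 0.0839). Syt1, the calcium sensor of that machinery, had 1.11 and -0.72, and Nefl, a neurofilament subunit, had 1.08 and -0.41. Of 10 Schwann cell and neuron markers 2 passed, both higher, or 20% against 2.52%, and the median was 0.09. They were the neurotrophin receptor Ngfr with 0.67 and -0.45, and neuropeptide Y (Npy) with 0.83 and -0.61. Npy no longer passed without the second ErbB2 KI heart, and the list median was then 0.01. In the second contrast 3 of the 10 were lower, against 3.99% of all genes, and the median was -0.26. Th, tyrosine hydroxylase of sympathetic fibres, had 0.13.

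Some atrial genes were higher as well. Of 10 atrial markers 4 passed, all higher, or 40% against 2.52%, with a median of 0.33. Myl7, the atrial light chain, measured 10.47, 10.98 and 10.44 in ErbB2 KI hearts, against 10.22, 10.30 and 10.20 in WT hearts. Mybphl, Sln (sarcolipin, the atrial calcium pump inhibitor) and Myl4 had 0.44, 0.35 and 0.32. In the second contrast 3 of the 10 were lower, against 3.99% of all genes, and the median was -0.25. Without the second ErbB2 KI heart 1 of the 10 passed, and without the third WT heart 2. The summed linear signal of the list was 19817, 21893 and 19494 in ErbB2 KI hearts, against 19575, 16987 and 17414 in WT hearts, so the groups overlapped. How much atrium each sample held was not measured.

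Of 19 natriuretic peptide and fetal heart genes 3 were higher, or 15.8% against 2.52%, Nppb and the atrial Myl4 and Myl7. Nppb, the B-type natriuretic peptide used as a marker of wall stress, averaged 12.11 ± 0.1 in ErbB2 KI hearts and 11.74 ± 0.02 in WT hearts (SD, n = 3 each), with no overlap. The difference was 0.37 ± 0.13 (SE, adjusted p = 0.825), with 0.66 in the second contrast, and it no longer passed without the first ErbB2 KI heart. Nppa, Myh7 and Acta1, the other common hypertrophy markers, had 0.07, 0.08 and 0.33 and did not pass. None of 23 collagen genes passed, with a median of 0.05. Among 42 matricellular, protease and TGF-β genes 3 were higher, or 7.14%, Timp3, an inhibitor of matrix proteases, with 0.42, Smad7, the inhibitory SMAD, with 0.43, and Ccn2, connective tissue growth factor, with 0.29, which no longer passed in 9 of 16 settings.

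Antigen presentation genes were lower in ErbB2 KI hearts. Of 13 MHC genes 6 passed, all lower, or 46.2% against 1.78% of all genes, with a median of -0.47. B2m, the light chain shared by class I molecules, measured 11.58, 11.45 and 11.47 in ErbB2 KI hearts, against 12.06, 12.26 and 11.79 in WT hearts, and the difference was -0.53 ± 0.18 (SE, adjusted p = 0.825). H2-Aa, a class II chain, measured 5.57, 5.93 and 5.72 in ErbB2 KI hearts, against 6.39, 6.70 and 6.11 in WT hearts. In H2-Aa the second WT heart was the highest, as in B2m. H2-Ab1, H2-Q4, H2-Aa, H2-DMb1 and H2-K1 had -0.80, -0.74, -0.66, -0.62 and -0.47. In the second contrast 7 of the 13 were lower, against 3.99% of all genes, with a median of -0.59. Their summed linear signal was 4832, 5566 and 6985 in KI:KO hearts and 10580, 6702 and 9775 in ERRα KO hearts, so those groups overlapped. Without the second WT heart none of the 13 passed and the median was -0.34.

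Interferon-stimulated genes had the same sign. Of 33 measured 30 were below 0, with a median of -0.36, and 4 passed, or 12.1% against 1.78%. Oasl2 and Usp18 had -0.65 each, Gbp3 had -1.06 and Xaf1 had -0.53. Oasl2 measured 5.34, 5.91 and 5.67 in ErbB2 KI hearts, against 6.24, 6.56 and 6.06 in WT hearts. Gbp3 measured 4.72, 4.52 and 4.53 in ErbB2 KI hearts, against 5.24, 6.57 and 5.13 in WT hearts, and no longer passed in 7 of 16 settings. Without the second WT heart 2 of the 33 passed and the median was -0.17, and without the third 12 passed and it was -0.48. In KI:KO against ERRα KO hearts 12 were lower, against 3.99% of all genes, and none higher, with a median of -0.27. The summed linear signal of the list was 2458, 2274 and 3683 in KI:KO hearts and 8336, 2744 and 6394 in ERRα KO hearts. Those groups overlapped, and the signal varied between arrays of 1 genotype. The 17 macrophage markers had a median of 0.02 and the 17 lymphocyte and neutrophil markers -0.06, with none past the threshold.

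The start region of B2m, an interferon-inducible MHC gene, is shown to place it among these genes, with an interferon-stimulated response element, 2 GAAA blocks with 2 bases between them on either strand, in capitals. It lies on the plus strand at chr2:122147437-122147686.
B2m: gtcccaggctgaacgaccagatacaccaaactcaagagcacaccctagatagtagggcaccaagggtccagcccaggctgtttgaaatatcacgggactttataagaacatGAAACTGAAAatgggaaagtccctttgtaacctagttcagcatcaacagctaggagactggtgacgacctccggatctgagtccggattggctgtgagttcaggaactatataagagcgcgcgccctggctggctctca
Of all promoter windows 2.98% held this motif, against 12 of the 27 interferon-stimulated genes with a window and 3 of the 13 MHC genes, and the interferon list is defined by that response.

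Immediate early and clock genes differed in both directions. Of 23 immediate early genes 3 were lower (13%, against 1.78% of all genes) and 2 higher (8.7%, against 2.52%). Fos measured 6.09, 5.16 and 5.38 in ErbB2 KI hearts, against 6.13, 6.61 and 6.76 in WT hearts, a difference of -0.96 ± 0.23 (SE, adjusted p = 0.53), and it had 0.15 in the second contrast. Dusp1, a MAPK phosphatase, had -0.53, and Nr4a1 is given above. Ier3 and Klf4 were higher with 0.50 and 0.41. Of 17 clock genes 3 were higher (17.6%) and 1 lower (5.88%). Bhlhe40, Per3 and Dbp had 0.58, 0.55 and 0.96. Dbp, a clock output factor, measured 8.23, 8.86 and 9.62 in ErbB2 KI hearts, against 8.11, 8.12 and 7.60 in WT hearts. Arntl, which encodes the clock activator BMAL1, was lower, with 8.01, 7.82 and 7.16 in ErbB2 KI hearts, against 8.31, 8.45 and 8.47 in WT hearts, a difference of -0.75. The third ErbB2 KI heart had the highest Dbp and the lowest Arntl, and without it Dbp had 0.60 and did not pass. Dbp also missed the threshold without the third WT heart and by the methods' test. All mice were killed at the same zeitgeber time, with the genotypes taken in turn per the methods.

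Of 44 heat shock and stress response genes 3 were higher (6.82%, against 2.52% of all genes) and 1 lower (2.27%, against 1.78%). The higher ones were Fkbp5 with 0.46, Asns with 0.36 and Atf4 with 0.27, and Atf4 no longer passed in 7 of 16 settings. Asns and Atf4 belong to the amino acid response, of which no other measured member of the list passed. Ddit4, an mTORC1 inhibitor induced by glucocorticoids and hypoxia, was the lower one, with 6.76, 6.47 and 6.36 in ErbB2 KI hearts, against 6.85, 6.86 and 6.93 in WT hearts. In the second contrast Ddit4 was higher, with 7.56, 7.48 and 7.86 in KI:KO hearts, against 6.29, 6.64 and 6.24 in ERRα KO hearts. Its differences were -0.35 and 1.24, the first of which no longer passed in 6 of 16 settings, and the interaction of 1.59 ± 0.20 (SE) had an adjusted p of 0.0495, just under the threshold. In 11 of 20 alternative settings this interaction was not called, with an adjusted p up to 0.191.

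Few members of the energy metabolism lists passed in ErbB2 KI hearts, beside 4.3% of all genes. At that share lists of this size hold few genes. None of 62 respiratory chain genes and none of 35 citric acid cycle and pyruvate genes passed. The same held for 16 ERR and PPAR receptor and coactivator genes. The medians were -0.04, -0.02 and -0.04, with 40, 26 and 12 members below 0 and 22, 9 and 4 above. Of 37 fatty acid uptake and oxidation genes 27 lay below 0 and 10 above. Of these 1 passed, Acaca, an enzyme of synthesis and of the malonyl-CoA brake on oxidation, which was higher. Lpl, Cd36 and Pdk4 had 0.00, -0.03 and -0.02. Of 35 glucose uptake and glycolysis genes 1 passed, the transporter Slc2a12 with -0.33, and Slc2a4, the insulin-responsive transporter, had 0.02. None of the 12 cardiomyocyte, 12 fibroblast, 12 endothelial and 12 smooth muscle and pericyte markers passed, with medians of -0.02, 0.12, 0.00 and 0.01. Of 10 mesothelial markers Wt1 and Krt8 were higher, or 20% against 2.52%, with 0.49 and 0.43, beside a list median of -0.08.

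**Figure D5:**
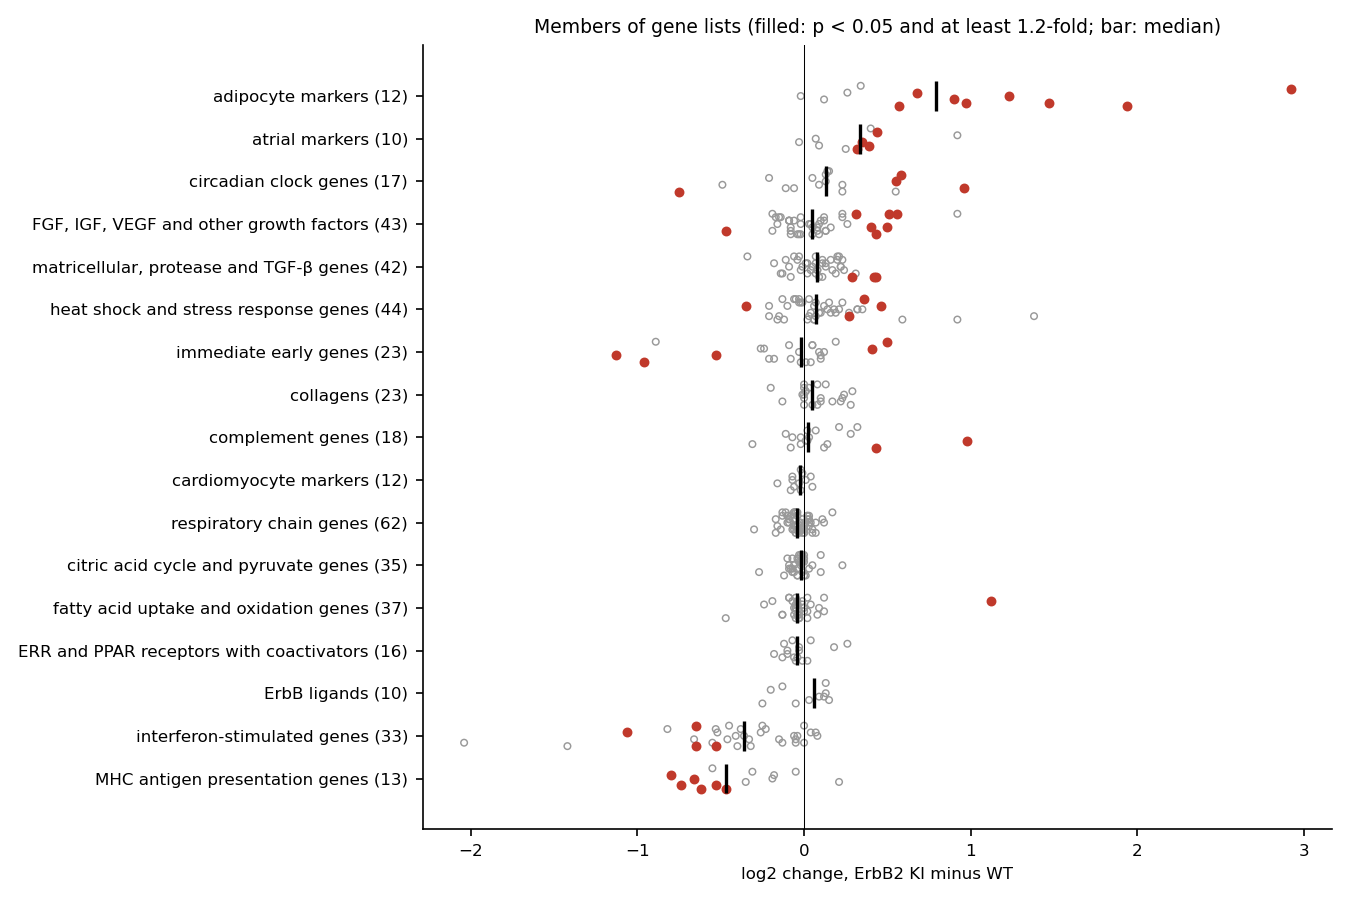
Log2 difference between ErbB2 KI and WT hearts for each measured member of 17 gene lists, with the number measured in brackets. Filled points passed the 1.2-fold threshold and bars are list medians. Adipocyte and atrial markers had medians of 0.79 and 0.33, interferon-stimulated and MHC genes of -0.36 and -0.47, and the remaining lists lay between -0.04 and 0.13.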

How the data were processed

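Hearts of 12 mice, 3 per genotype, were profiled on Affymetrix Mouse Gene 2.0 ST arrays. Per the labels and the methods of the study, the authors normalized the scans by RMA in Affymetrix Expression Console 1.4.1, and the deposited table holds log2 signal for 41345 probe sets. RMA corrects background, quantile-normalizes all arrays together and summarizes probes, so a shift common to all genes of an array is removed. Of these probe sets 23521 were annotated to 1 gene, 1820 to several and 16004 to none. The 22180 genes, 22136 with a GRCm38.p6 position, were fitted over the 4 genotypes with limma 3.58.1 in R 4.3.3 (8 residual and 3.81 prior degrees of freedom) and p-values were adjusted by Benjamini-Hochberg over all genes. The code was tested on simulated data. Samples are separate mice, and their number limits the precision. The labels give no hybridization batch. With 3 against 3 an exact permutation test cannot go below 0.1 and was not used. The second threshold, unadjusted p under 0.05 with 1.2-fold, follows the study's methods, which used it with a test on each gene. Genes were followed over the settings if they were Erbb2 or Esrra, called, among the 20 smallest p, or ErbB receptors and ligands. Also followed were the 12 largest non-overlapping differences in each direction, the 12 best per direction in both contrasts and the leading 4 of a list. Genes within 5 Mb of a called gene and past the threshold, and Fgf6, Fgf16, Igf1 and Pgf, completed the set. Not all of these are named above. Of the 20 smallest p, Rhobtb1, Syn2, Cldn18 and Jph3 (0.53, 0.61, 0.58 and 0.66) were left out. So were Rcor2 and 1700066M21Rik (-0.49 and -0.61). Other genes were named after their values were seen, as list members or neighbours. The members, lists and tests were chosen with earlier results of these data known. Python 3.11.15 made the tables and figures. Alternatives are given with the closing observations.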

Additional observations from a re-analysis of the deposited data

Results flagged for a closer look

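Kcnt2 stood out because its difference between ErbB2 KI and WT hearts was not that between KI:KO and ERRα KO hearts, with an interaction of -3.05 on the log2 scale. Ddit4 stood out for the same reason, with an interaction of 1.59, since it was lower in ErbB2 KI than in WT hearts and higher in KI:KO hearts than without the knock-in in ERRα KO. These were the 2 genes called for that interaction by limma, and the call of Ddit4 was lost in 11 of 20 alternative settings. In a fit of all 41345 probe sets, 5 were called between ErbB2 KI and WT hearts, and 3 of these carry no gene name and enter no comparison above. Probe set 17549150 measured 8.18, 8.13 and 7.94 in ErbB2 KI hearts, against 5.28, 5.39 and 5.21 in WT hearts, a difference of 2.79 (adjusted p = 4.09e-06), and was at 9.07, 8.75 and 9.06 in KI:KO hearts, against 7.81, 7.75 and 7.68 in ERRα KO hearts. Probe set 17549062 measured 8.07, 8.04 and 7.93 in ErbB2 KI hearts, against 5.56, 5.68 and 5.87 in WT hearts, a difference of 2.31, with 1.23 between KI:KO and ERRα KO hearts. Both were thus lowest in WT, as was Kcnt2, but higher with the knock-in in both ERRα genotypes. Probe set 17284445 had a difference of 1.4 (adjusted p = 0.05), with 4.83, 4.63 and 4.14 in ErbB2 KI hearts, against 3.17, 3.18 and 3.07 in WT hearts. What these probe sets read is not annotated in the tables used here.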

How the results depend on the processing

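Of 202 genes followed over the settings, 15 changed sign in at least 1, none of them past the 1.2-fold threshold. They include Esrra, Bpgm and, when 1 ErbB2 KI heart was left out, Cd3e and Scgb1a1. Of 105 followed genes past the 1.2-fold threshold, 62 passed it in each of 16 alternative settings. The 3 genes called between ErbB2 KI and WT became 0 by the methods' test (562 at its unadjusted 1.2-fold threshold), 1 in a limma fit of those 6 arrays only, 9 with dim genes left out, 11 with an intensity trend, 7 with array weights, 5 over all probe sets, and 2 to 15 when single arrays were left out, with 15 without the third ErbB2 KI heart. Kcnt2 lost its call by the methods' test only, Msl3 by that test and the fit of 6 arrays, and Hccs in 9 of 16 settings, with an adjusted p up to 0.735. The 953 genes past the threshold became 562 by the methods' test and 507 without dim genes. The 73 called between KI:KO and ERRα KO became 0 by the methods' test, 12 with those 6 arrays only, 237 without dim genes, 294 with the trend, 204 with weights, and 17 to 248 with single arrays left out. The 106 shared in direction became 48 by the methods' test. The 2 interactions became 6 without dim genes, 1 after quantile normalization, 18 with the trend, 4 with weights and 1 to 22 with single arrays left out. The cause of these shifts was not tested.

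Replicate numbers did not pair the samples, since same-numbered ErbB2 KI and WT arrays deviated at r from -0.19 to 0.05. With the replicate number as a block 2 genes were called between ErbB2 KI and WT, 961 passed the threshold, 38 were called between KI:KO and ERRα KO, and 1 interaction was called. The 4 arrays with the highest mean, 1 per group, deviated together at r from 0.18 to 0.25, and 2 settings were chosen after seeing that. Without these 4 arrays 13 genes were called and 1452 passed between ErbB2 KI and WT, 127 were called between KI:KO and ERRα KO, and 22 interactions. With the 4 as a block 1 interaction was called. The 3 mice per group limit the precision of every value.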
